A study of Mus musculus with 16 samples.

Results

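Transcript levels of 9 sarcomere genes were followed in the gastrocnemius muscle of a mouse model of myotonic dystrophy and of its background strain. The genes were taken by name from a table of 24454 genes and comprise the giant filament genes Ttn and Neb, the myosin-binding protein genes Mybpc1 and Mybpc2, the M-band genes Myom1, Myom2 and Myom3, and the Z-disc genes Ldb3 and Actn3. The table gives an exonic length for each gene, and each of the 9 passed the filter on low counts that left 15487 genes to be tested.

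HSALR mice are homozygous for a human skeletal actin transgene (line LR20b) that carries an expanded CTG repeat and is driven by the actin promoter, so that repeat RNA is made in skeletal muscle and not in other tissues affected in patients. FVB mice of the same strain background, without the transgene, served as controls. Mice of both genotypes were 3 months old and received either vehicle, which the labels of single samples call control, or AICAR, an activator of the energy sensor AMPK, at 500 mg/kg for 7 days. There were 3 FVB mice and 5 HSALR mice under each treatment, 1 library per mouse and 16 libraries in all. The comparisons ask how the transgene changes these transcripts and whether AICAR changes them in either genotype.

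The sarcomere is the contractile unit of striated muscle. Titin, the product of Ttn, spans from the Z-disc to the M-band and acts as a molecular spring, whereas nebulin, the product of Neb, runs along the thin filament. Mybpc1 and Mybpc2 encode the slow and fast skeletal forms of myosin-binding protein C, which decorate the thick filament. The myomesins, encoded by Myom1, Myom2 and Myom3, crosslink thick filaments at the M-band. Ldb3 encodes the Z-disc protein also called ZASP or Cypher, and Actn3 encodes the alpha-actinin of fast glycolytic fibres. Several transcripts of this group, among them Ttn and Ldb3, are known targets of altered splicing in myotonic dystrophy. The values below are sums over the exons of a gene and do not resolve isoforms.

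Sequencing depth was even, with 64890014 to 81987726 gene counts per library (median 73021286). Levels are given as CPM (counts scaled to library size) with TMM factors, which ranged from 0.906 to 1.06, and are called nCPM below. Muscle fibre markers (Acta1, Ckm and Myh4) summed to between 76850 and 128100 nCPM in each of the 16 libraries. A list of 8 epidermal markers, which muscle should lack, summed to under 10 nCPM in 10 libraries and to between 18.6 and 187 nCPM in the other 6. Those 6 were 4 of the 5 HSALR vehicle mice, 1 FVB vehicle mouse (S450) and 1 FVB AICAR mouse (S448), and none of the 5 HSALR AICAR mice, whose sums were 0.242 to 0.371 nCPM. The comparison of AICAR with vehicle in HSALR mice therefore runs along with this difference. HSALR against FVB after vehicle is uneven in it as well, with median sums of 35.4 and 1.21 nCPM. Values from the 10 libraries with little epidermal RNA alone, which keep 1 HSALR vehicle mouse (S451), are given beside several of the results. The part of this RNA in the results was not tested.

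The genes lie on 8 chromosomes of the mouse genome (GRCm38, GENCODE M21). Ttn lies at chr2:76703980-76982547 on the minus strand, with up to 347 exons in 1 annotated transcript, and Neb at chr2:52136647-52378474 on the minus strand, with up to 157. Mybpc1 lies at chr10:88518279-88605152 and Mybpc2 at chr7:44501699-44524656, both on the minus strand. The myomesin genes are all on plus strands, Myom1 at chr17:71002633-71126856, Myom2 at chr8:15057653-15133541 and Myom3 at chr4:135759715-135815564. Ldb3 lies at chr14:34526603-34588682 and Actn3 at chr19:4861216-4877909, both on the minus strand. The deposited exonic lengths were 104320 bases for Ttn, 22489 for Neb, 6015 for Ldb3, 5613 for Myom1, 5578 for Myom3, 4953 for Myom2, 3981 for Mybpc1, 3624 for Mybpc2 and 2887 for Actn3. An annotated gene on the opposite strand overlaps an exon of Ttn, Neb, Mybpc1, Mybpc2 and Myom1 (for Myom1 it is the protein-coding Myl12a), and the strand setting of the counting is not given in the sources used here, so reads of such partners cannot be told apart from those of the gene.

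RefSeq start sites (GRCm38.p6) were given for 6 of the 9 genes in the promoter table used. The 250 bases before the start are shown for the 4 whose window holds no annotated exon of the gene (Ttn, Mybpc1, Mybpc2 and Myom3), because each of these 4 passed the test in at least 1 comparison. Capitals mark matches, on either strand, to the E-box CANNTG, to the MCAT motif CATTCC, and to the MEF2 box, read as C or T, TA, 4 bases that are each A or T, TA, and A or G. The CArG box, read as CC, 6 bases that are each A or T, and GG, and TATAAA were searched as well and had no match in these 4 windows.
Ttn, chr2:76982548-76982797, minus strand: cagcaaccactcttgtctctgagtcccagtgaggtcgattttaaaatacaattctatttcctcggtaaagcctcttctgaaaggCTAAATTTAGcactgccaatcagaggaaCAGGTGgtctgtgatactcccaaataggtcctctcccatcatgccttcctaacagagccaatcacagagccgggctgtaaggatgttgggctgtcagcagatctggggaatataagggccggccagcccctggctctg
Mybpc1, chr10:88605153-88605402, minus strand: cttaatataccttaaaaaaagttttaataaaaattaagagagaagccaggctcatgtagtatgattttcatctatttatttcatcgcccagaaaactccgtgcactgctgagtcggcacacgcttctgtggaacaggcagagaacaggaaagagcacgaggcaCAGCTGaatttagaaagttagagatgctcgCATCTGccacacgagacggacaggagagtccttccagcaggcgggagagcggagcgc
Mybpc2, chr7:44524670-44524919, minus strand: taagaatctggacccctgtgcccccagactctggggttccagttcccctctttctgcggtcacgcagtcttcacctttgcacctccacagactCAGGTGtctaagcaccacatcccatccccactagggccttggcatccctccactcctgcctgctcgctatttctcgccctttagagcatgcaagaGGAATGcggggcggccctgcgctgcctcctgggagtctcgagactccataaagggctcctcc
Myom3, chr4:135759465-135759714, plus strand: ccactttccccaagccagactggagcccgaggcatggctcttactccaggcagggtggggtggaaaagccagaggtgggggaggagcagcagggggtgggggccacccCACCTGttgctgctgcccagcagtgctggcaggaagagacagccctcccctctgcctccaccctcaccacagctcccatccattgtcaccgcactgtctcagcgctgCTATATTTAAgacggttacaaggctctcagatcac
The Ttn window held 1 MEF2 box, starting 166 bases before the start site, and 1 E-box, at 138 bases. The Mybpc2 window held 1 E-box at 157 bases and 1 MCAT match at 62 bases, Myom3 held 1 E-box at 142 bases and 1 MEF2 box at 35 bases, and Mybpc1 held 2 E-boxes, at 87 and 57 bases. No 2 matches overlapped. Of 32851 promoter windows of the same length, 66.2% held an E-box, 12.6% an MCAT match, 2.92% a MEF2 box, 1.47% a CArG box and 12.4% TATAAA, so an E-box by itself does not set these promoters apart. These matches describe letters and not binding.

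Together the 9 genes took 3.33% to 5.45% of the gene counts of a library, with a mean of 4.58% ± 0.37 (SD, n = 3) in FVB vehicle, 4.56% ± 0.79 (n = 3) in FVB AICAR, 3.88% ± 0.32 (n = 5) in HSALR vehicle and 4.5% ± 0.32 (n = 5) in HSALR AICAR mice. Ttn alone made up 30.9% ± 2.7 of the counts of the 9 genes in FVB vehicle mice and 21.5% ± 1.7 in HSALR vehicle mice. Levels of different genes can be compared only per length. On the scale of nCPM per kb of exonic length, Actn3 was highest in every group, at 2811 ± 337 in FVB vehicle mice, followed by Mybpc2 at 1545 ± 232 and Mybpc1 at 713 ± 97.8. Neb (416 ± 35.7), Myom2 (329 ± 49.5), Ldb3 (299 ± 30.4) and Myom1 (287 ± 10.8) came next, and among these the ranges over mice of Myom2, Ldb3 and Myom1 overlapped with their neighbours. Ttn followed at 135 ± 24.4 and Myom3 came last at 29.2 ± 11.4 nCPM per kb.

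The order per kb was the same in all 4 groups for the first 3 genes and for Ttn and Myom3 at the end, and it changed in the middle. In HSALR vehicle mice Myom2 was the fourth at 413 ± 38.0 nCPM per kb and its range overlapped that of Neb, at 357 ± 58.9. In HSALR AICAR mice Myom2 reached 567 ± 57.5 nCPM per kb and no longer overlapped Neb, at 429 ± 57.5. In FVB AICAR mice the ranges of neighbours overlapped from Mybpc1 (551 ± 82.6 nCPM per kb) down through Myom2 (430 ± 83.1), Neb (392 ± 110.0), Myom1 (308 ± 40.6) and Ldb3 (294 ± 20.7).

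**Figure D1:**
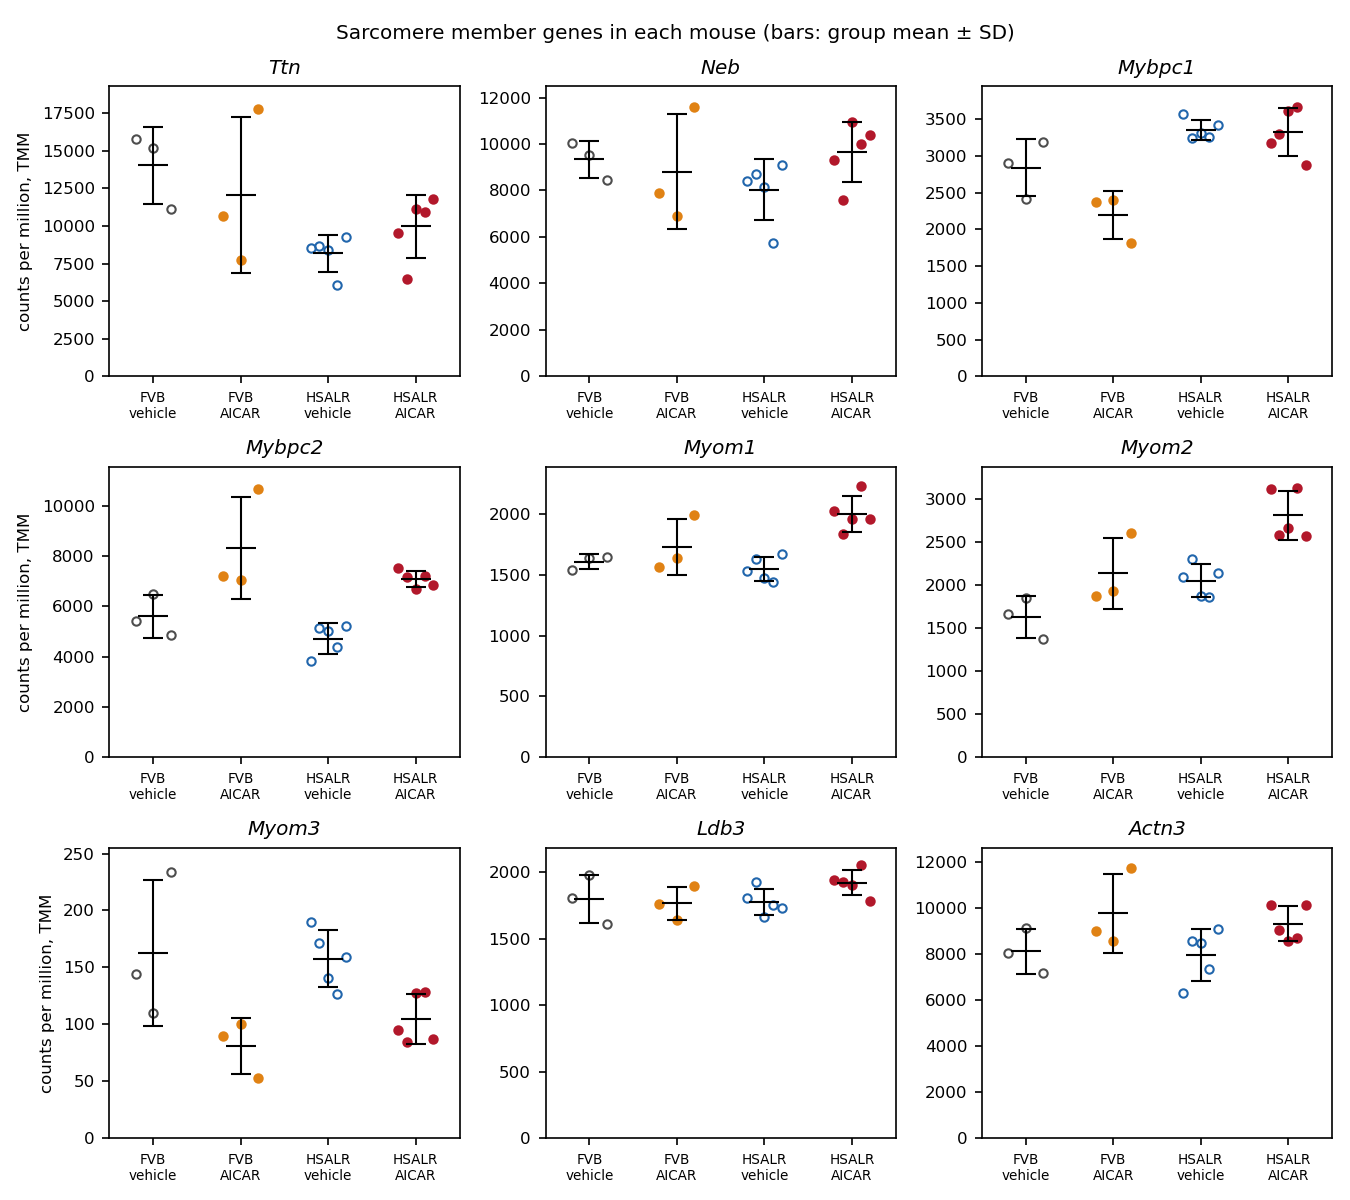
Levels of the 9 genes in each mouse, in TMM-scaled CPM (nCPM, vertical axes, starting at 0), by group (horizontal axes). Points are mice (open for vehicle, filled for AICAR), and bars are the group mean ± SD, with n = 3 for FVB and n = 5 for HSALR groups. Ttn was lower in each HSALR vehicle mouse than in each FVB vehicle mouse, and Mybpc2, Myom1 and Myom2 were higher in each HSALR AICAR mouse than in each HSALR vehicle mouse.

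Group differences were assessed by the quasi-likelihood test of edgeR, with p adjusted by Benjamini-Hochberg over the 15487 genes and a threshold of 0.05 (edgeR adjusted p below). Between HSALR and FVB mice after vehicle, 1 of the 9 genes passed (Ttn, lower), where 26.9% of all genes tested did, 15.4% being higher and 11.5% lower. After AICAR, 2 of 9 passed between the genotypes (Mybpc1 and Myom2, both higher in HSALR), where 21.8% of all genes did, 12.2% being higher and 9.64% lower. AICAR against vehicle in HSALR mice gave 4 of 9 (Mybpc2, Myom1 and Myom2 higher, Myom3 lower), where 26.6% of all genes passed, 13.7% being higher and 13.0% lower. In FVB mice AICAR gave 2 of 9 (Mybpc2 higher, Myom3 lower), where 13.2% of all genes passed, 8.4% higher and 4.77% lower. These shares are of the 15487 genes tested, and a count among 9 genes is coarse beside them. In bulk muscle, a lower level of a transcript in each cell and fewer cells that carry it cannot be told apart.

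The median log2 fold change of the 9 genes was -0.05 between HSALR and FVB after vehicle, beside 0.01 for all genes tested. It was 0.27 for AICAR in HSALR mice, beside -0.02 for all genes, and 0.13 between the genotypes after AICAR, beside 0.00 for all genes. For AICAR in FVB mice it was -0.03, beside -0.01. The groups did not overlap for 3 of 9 genes between HSALR and FVB after vehicle (29.7% of all genes tested), for 3 of 9 with AICAR in HSALR mice (17.7%), for 4 of 9 with AICAR in FVB mice (33.1%) and for 1 of 9 between the genotypes after AICAR (26.5%).

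**Figure D2:**
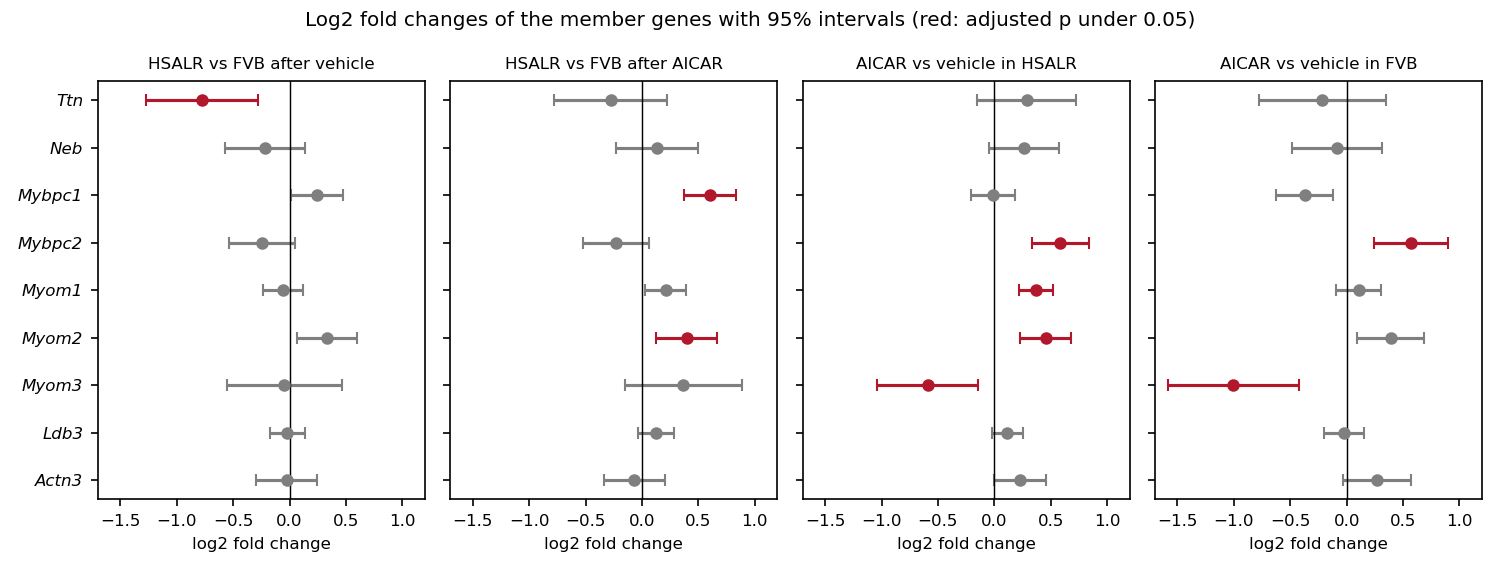
Log2 fold changes of the 9 genes (horizontal axes) in the 4 comparisons, with 95% intervals from the edgeR fit; red marks an adjusted p under 0.05. The interval of Ttn lay below 0 between HSALR and FVB after vehicle, and those of Mybpc2 above 0 with AICAR in both genotypes.

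Ttn, the titin gene, was lower in HSALR than in FVB muscle after vehicle. Its level was 15800, 15160 and 11110 nCPM in the FVB vehicle mice and 8502, 8661, 8370, 6048 and 9265 nCPM in the HSALR vehicle mice. The groups did not overlap, and the highest HSALR mouse lay below the lowest FVB mouse. The log2 fold change was -0.78 ± 0.23 (SE; 95% interval -1.27 to -0.28; n = 3 and 5; edgeR adjusted p = 0.0216), a ratio of 0.582. In this direction the difference held under all 29 alternatives run, but 6 of them ended the call. These were scaling to Tbp (-0.51, edgeR adjusted p = 0.13), the epidermal marker score as a covariate (-0.59, 0.0811), an offset for transcript length (-0.25, 0.1), the fits without FVB vehicle mouse S445 (-0.69, 0.0927) or S446 (-0.72, 0.0709), and the 10 libraries with little epidermal RNA (-0.87, 0.222), where 1 HSALR vehicle mouse was left.

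After AICAR, Ttn did not pass in either genotype or between them. The FVB AICAR mice stood at 10630, 7763 and 17800 nCPM and the HSALR AICAR mice at 9509, 6469, 11160, 10910 and 11770 nCPM. The groups overlapped, with 4 of the 5 HSALR mice inside the FVB range, and S449 was the highest of the 16 libraries. Log2 fold changes were 0.29 ± 0.21 for AICAR in HSALR mice (edgeR adjusted p = 0.334), -0.22 ± 0.26 in FVB mice (edgeR adjusted p = 0.639) and -0.28 ± 0.24 between HSALR and FVB after AICAR (edgeR adjusted p = 0.429). The last had a 95% interval of -0.78 to 0.22 and turned positive without S449 (0.12) and with the offset for length (0.07).

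Neb, which encodes the thin filament ruler nebulin, passed the test in none of the 4 comparisons. It stood at 10040, 9534 and 8466 nCPM in FVB vehicle mice and at 8417, 8727, 8168, 5750 and 9112 nCPM in HSALR vehicle mice, which overlapped. The log2 fold change between them was -0.22 ± 0.17 (95% interval -0.58 to 0.14; edgeR adjusted p = 0.372). With AICAR, Neb stood at 7895, 6921 and 11610 nCPM in FVB mice and at 9316, 7602, 10950, 10020 and 10400 nCPM in HSALR mice. The log2 fold changes were 0.27 ± 0.15 with AICAR in HSALR mice (edgeR adjusted p = 0.2), -0.09 ± 0.19 with AICAR in FVB mice (0.818) and 0.13 ± 0.17 between HSALR and FVB after AICAR (0.611). With an offset for transcript length the first and the last passed (0.25, edgeR adjusted p = 0.0296, and 0.32, edgeR adjusted p = 0.0283). In the 10 libraries with little epidermal RNA, Neb had 0.20 with AICAR in HSALR mice (edgeR adjusted p = 0.668). HSALR vehicle mouse S458 was the lowest of its group for both giant genes, and HSALR AICAR mouse S455 was the lowest of its group for both as well.

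Mybpc1 and Mybpc2, which encode slow and fast myosin-binding protein C, moved in different comparisons. Mybpc1 was 2908, 2419 and 3188 nCPM in FVB vehicle mice and 3567, 3243, 3306, 3257 and 3415 nCPM in HSALR vehicle mice. Each HSALR mouse was above each FVB mouse, but the log2 fold change of 0.24 ± 0.11 did not pass (edgeR adjusted p = 0.109). In FVB AICAR mice Mybpc1 was 2369, 2395 and 1813 nCPM, each below each FVB vehicle mouse, with a log2 fold change of -0.37 ± 0.12 that missed the threshold (edgeR adjusted p = 0.0512). It passed under 7 of 29 alternatives, among them DESeq2 (-0.37, adjusted p = 0.0226) and the fit without FVB vehicle mouse S446 (-0.47, edgeR adjusted p = 0.024). In HSALR AICAR mice it was 3170, 3296, 3616, 3671 and 2872 nCPM, on both sides of the HSALR vehicle mice, with a log2 fold change of -0.01 ± 0.09 (95% interval -0.21 to 0.18). After AICAR, Mybpc1 was higher in HSALR than in FVB mice by 0.60 ± 0.11 on the log2 scale, a ratio of 1.52 (n = 5 and 3, edgeR adjusted p = 0.00127). This call held under all 29 alternatives, including the 10 libraries with little epidermal RNA (0.67, edgeR adjusted p = 0.0117).

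Mybpc2 rose with AICAR in both genotypes. In HSALR mice it went from 3813, 5157, 5032, 4375 and 5232 nCPM after vehicle to 7525, 7154, 6695, 7210 and 6839 nCPM after AICAR. The groups did not overlap, and the gap between them was wider than the range within either. This was a log2 fold change of 0.59 ± 0.12 (95% interval 0.33 to 0.84; n = 5 and 5; edgeR adjusted p = 0.00229), a ratio of 1.5. It stayed past the threshold under 28 of 29 alternatives, and missed it with the epidermal marker score as a covariate (0.53, edgeR adjusted p = 0.0603). The 10 libraries with little epidermal RNA gave 0.89. There the only HSALR vehicle mouse was S451, the lowest of its group for Mybpc2 at 3813 nCPM.

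In FVB mice Mybpc2 went from 5433, 6509 and 4855 nCPM after vehicle to 7226, 7063 and 10650 nCPM after AICAR, also without overlap. The difference on the log2 scale was 0.57 ± 0.15 (95% interval 0.24 to 0.90; n = 3 and 3; edgeR adjusted p = 0.0238). It was 0.35 (edgeR adjusted p = 0.124) without FVB AICAR mouse S449, and it missed the threshold also without FVB vehicle mice S445 (0.55, 0.0776) or S450 (0.48, 0.0939), with only these 2 groups in the fit (0.56, 0.127), and with the low-epidermal libraries alone (0.57, 0.0873). Between the genotypes Mybpc2 did not pass, at -0.25 ± 0.14 after vehicle (edgeR adjusted p = 0.201) and -0.23 ± 0.14 after AICAR (edgeR adjusted p = 0.241). Leaving out single mice gave -0.34 to -0.12 after vehicle and -0.34 to -0.01 after AICAR. The low-epidermal libraries alone gave -0.65 after vehicle, where 1 HSALR vehicle mouse was left, and -0.33 after AICAR.

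At the M-band, Myom1 and Myom2 rose and Myom3 fell with AICAR in HSALR mice. Myom1 went from 1532, 1629, 1474, 1438 and 1675 nCPM to 2025, 1837, 1956, 2233 and 1956 nCPM, without overlap. The log2 difference was 0.37 ± 0.07 (95% interval 0.22 to 0.52; n = 5 and 5; edgeR adjusted p = 0.00175), a ratio of 1.29. It missed the threshold when scaled to Tbp (0.26, edgeR adjusted p = 0.142) and in the low-epidermal libraries alone (0.38, edgeR adjusted p = 0.149). In FVB mice Myom1 was 1539, 1641 and 1648 nCPM after vehicle and 1566, 1635 and 1991 nCPM after AICAR, and the log2 fold change of 0.11 ± 0.09 did not pass (edgeR adjusted p = 0.498).

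Myom2, the myomesin of fast fibres, went in HSALR mice from 2086, 2298, 1869, 1853 and 2136 nCPM after vehicle to 3115, 2582, 2653, 3118 and 2566 nCPM after AICAR. Again no AICAR mouse was as low as the highest vehicle mouse, and the log2 fold change was 0.45 ± 0.11 (95% interval 0.22 to 0.68; n = 5 and 5; edgeR adjusted p = 0.00628). The call was lost when scaled to Tbp (0.34, edgeR adjusted p = 0.113), with the epidermal marker score (0.31, edgeR adjusted p = 0.18) and in the low-epidermal libraries alone (0.42, edgeR adjusted p = 0.213). In FVB mice Myom2 was 1663, 1852 and 1366 nCPM after vehicle and 1865, 1924 and 2605 nCPM after AICAR, which did not overlap, but the log2 fold change of 0.39 ± 0.14 did not pass (edgeR adjusted p = 0.0779).

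Myom2 was also the only M-band gene of the 3 to pass between the genotypes. After AICAR it was higher in HSALR mice by 0.40 ± 0.13 on the log2 scale (95% interval 0.13 to 0.67; edgeR adjusted p = 0.0351), although FVB AICAR mouse S449, at 2605 nCPM, lay among the HSALR mice. This call was lost under 8 of 29 alternatives, among them the fits without FVB AICAR mice S447 (0.31, edgeR adjusted p = 0.16) or S448 (0.33, edgeR adjusted p = 0.147), and without HSALR AICAR mice S454 (0.36, edgeR adjusted p = 0.077) or S462 (0.36, edgeR adjusted p = 0.0731), and the low-epidermal libraries alone (0.33, edgeR adjusted p = 0.141). After vehicle the difference was 0.33 ± 0.13 (edgeR adjusted p = 0.0625), the groups did not overlap, and 7 of 29 alternatives brought it past the threshold.

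Myom3, the myomesin found mainly in slow and intermediate fibres, was the least abundant of the 9 genes and fell with AICAR in both genotypes. In FVB mice it was 144, 110 and 234 nCPM after vehicle and 90.2, 99.9 and 53.1 nCPM after AICAR, without overlap. The log2 difference was -1.0 ± 0.27 (95% interval -1.58 to -0.43; n = 3 and 3; edgeR adjusted p = 0.0242), a ratio of 0.498. Without FVB vehicle mouse S450 it was -0.65 (edgeR adjusted p = 0.125) and without FVB AICAR mouse S449 it was -0.77 (edgeR adjusted p = 0.103), so the call rested on each of these mice. It was also lost when scaled to Tbp (-0.77, edgeR adjusted p = 0.0836), with only these 2 groups in the fit (-1.01, edgeR adjusted p = 0.0985) and in the low-epidermal libraries alone (-0.84, edgeR adjusted p = 0.12). S450, the highest of the FVB vehicle mice for Myom3, also carried epidermal marker RNA.

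In HSALR mice Myom3 was 190, 171, 140, 127 and 159 nCPM after vehicle and 94.9, 84.9, 128, 129 and 86.8 nCPM after AICAR. The groups overlapped between HSALR vehicle mouse S458 and the highest AICAR mice. On the log2 scale the difference was -0.59 ± 0.21 (95% interval -1.04 to -0.15; n = 5 and 5; edgeR adjusted p = 0.0484), just inside the threshold, and 14 of 29 alternatives put it outside. Leaving out HSALR vehicle mice S451 (-0.51, edgeR adjusted p = 0.11), S452 (-0.56, 0.0885), S453 (-0.63, 0.0609) or S459 (-0.59, 0.0771), or HSALR AICAR mice S454 (-0.56, 0.101), S455 (-0.52, 0.109) or S463 (-0.53, 0.106), ended the call, as did the fits without FVB vehicle mouse S445 (-0.59, 0.0566) or FVB AICAR mouse S447 (-0.59, 0.055). The epidermal marker score as a covariate gave -0.35 (edgeR adjusted p = 0.411) and the low-epidermal libraries alone -0.87 (edgeR adjusted p = 0.106). The direction was negative in each of the 29.

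At the Z-disc, neither Ldb3 nor Actn3 passed in any of the 4 comparisons. Ldb3 was the steadiest of the 9 genes, between 1614 and 2057 nCPM over all 16 libraries, with group means of 1800 ± 183 (FVB vehicle), 1768 ± 124 (FVB AICAR), 1777 ± 99.9 (HSALR vehicle) and 1924 ± 97.5 (HSALR AICAR). Its log2 fold change between HSALR and FVB after vehicle was -0.02 ± 0.07, with a 95% interval of -0.18 to 0.14. Actn3 ranged from 6317 to 11740 nCPM, with means of 8117 ± 973 in FVB vehicle, 9779 ± 1710 in FVB AICAR, 7966 ± 1117 in HSALR vehicle and 9329 ± 763 in HSALR AICAR mice. Its log2 fold changes with AICAR were 0.23 ± 0.11 in HSALR mice (95% interval -0.01 to 0.46; edgeR adjusted p = 0.142) and 0.27 ± 0.14 in FVB mice (95% interval -0.03 to 0.57; edgeR adjusted p = 0.23). With AICAR in HSALR mice, the low-epidermal libraries alone gave 0.56 for Actn3 (edgeR adjusted p = 0.0868) and 0.09 for Ldb3 (edgeR adjusted p = 0.685).

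Actn2, the alpha-actinin gene expressed in all fibre types, was set beside Actn3. It was 1186, 970 and 1460 nCPM in FVB vehicle, 1132, 1364 and 984 nCPM in FVB AICAR, 1556, 1657, 1352, 1555 and 1503 nCPM in HSALR vehicle, and 1529, 1502, 1560, 2017 and 1451 nCPM in HSALR AICAR mice. After AICAR it was higher in HSALR than in FVB mice by 0.47 ± 0.14 on the log2 scale (edgeR adjusted p = 0.023), a call lost without FVB AICAR mice S447 (0.46, edgeR adjusted p = 0.0774) or S449 (0.37, edgeR adjusted p = 0.107). After vehicle the difference of 0.34 ± 0.14 did not pass (edgeR adjusted p = 0.0802).

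Whether AICAR acted differently in the 2 genotypes was tested as an interaction. By edgeR 0 of the 9 genes passed, where 0.691% of all genes tested did; 2 of the 9 had an unadjusted p under 0.05 (Mybpc1 and Myom1). The difference of the AICAR effects, HSALR minus FVB, was 0.36 ± 0.15 for Mybpc1 (edgeR adjusted p = 0.278) and 0.26 ± 0.12 for Myom1 (edgeR adjusted p = 0.308). DESeq2 and limma with voom also gave 0 of 9. For Mybpc2 the difference was 0.02 ± 0.19, with a 95% interval of -0.40 to 0.43, and for Ttn it was 0.50 ± 0.34, with an interval of -0.21 to 1.22, so that a difference of the fitted size was not detectable for Ttn with these mice.

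The deposited lengths were then set against the fold changes, because Ttn is the longest of the 15487 genes tested. Between HSALR and FVB after vehicle, the median log2 fold change of the other genes declined from 0.18 for 1173 genes under 1 kb to 0.10 for 3441 genes of 1 to 2 kb, 0.02 for 6164 genes of 2 to 4 kb, -0.09 for 3955 genes of 4 to 8 kb and -0.19 for 745 genes of 8 kb and over. The share of genes called lower rose over the same bins from 3.75% to 23.8%, and the share called higher fell from 30.3% to 7.52%. Ttn therefore changed in the direction in which long transcripts as a whole were displaced in these libraries.

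Of the 14 genes of 20 kb or more, Ttn and Neb included, 13 had a negative log2 fold change after vehicle and 4 passed the test, all lower, among them Ttn, Dst and the non-coding Neat1. Dst, the gene of the cytoskeletal linker dystonin, had a log2 fold change of -0.57 (edgeR adjusted p = 0.0141), which missed the threshold without FVB vehicle mouse S445 (-0.52, edgeR adjusted p = 0.0604). The long Macf1, by contrast, stood at 0.25 (edgeR adjusted p = 0.3). Several of the 14 rows are near-identical gene copies that share reads.

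The displacement by length was smaller between the genotypes after AICAR, from 0.12 under 1 kb to -0.13 at 8 kb and over. For AICAR against vehicle it was nearly flat, between -0.03 and -0.01 over the 5 bins in HSALR mice and from 0.03 to -0.05 in FVB mice. With an offset for length fitted within each library, the median at 8 kb and over became -0.04 after vehicle and Ttn became -0.25 (edgeR adjusted p = 0.1). The offset at the length of Ttn is set by few genes, Ttn among them. A lower level of Ttn by itself and the displacement of long transcripts as a whole cannot be told apart here. With the same offset, the AICAR calls of Mybpc2, Myom1 and Myom2 in HSALR mice were kept, and Neb passed there as well (0.25, edgeR adjusted p = 0.0296).

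**Figure D3:**
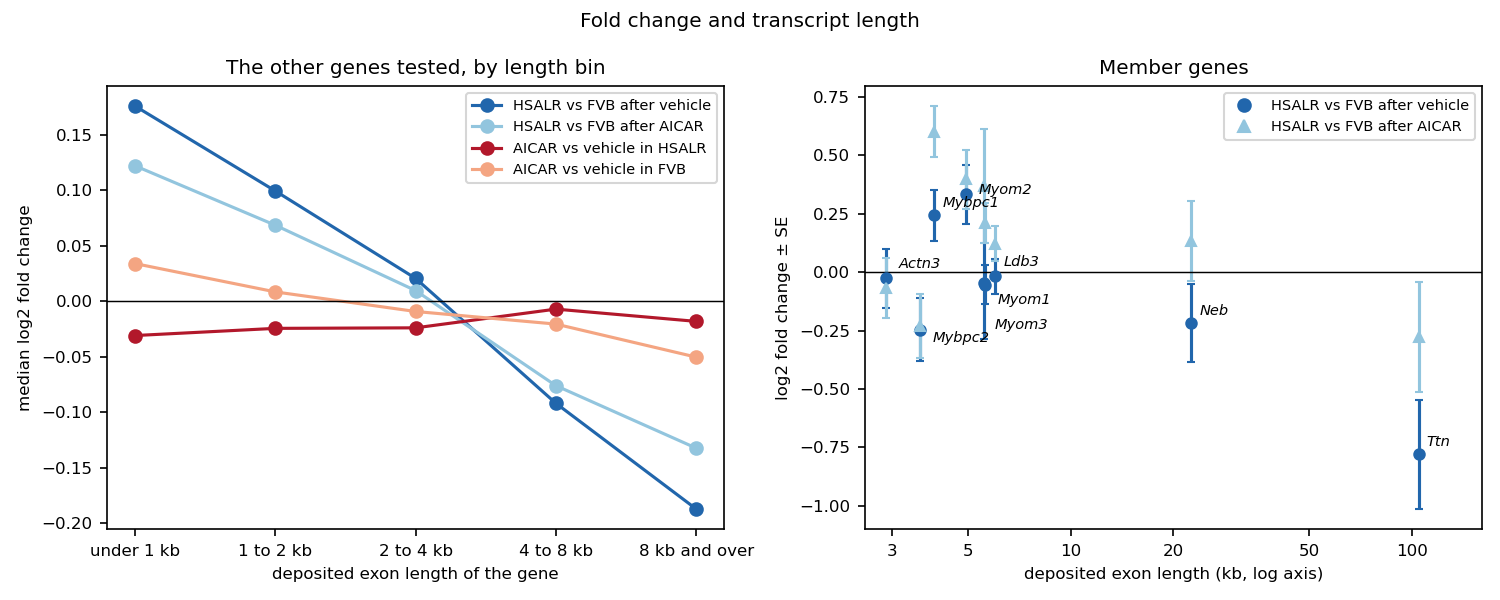
Left, median log2 fold change (vertical axis) of the genes tested other than the 9, in bins of deposited exonic length, with 1 line per comparison. Right, log2 fold change ± SE of the 9 genes against their length in kb on a log axis, for HSALR against FVB after vehicle (circles) and after AICAR (triangles). The medians between HSALR and FVB fell from 0.18 to -0.19 with length after vehicle, and Ttn, the longest gene, had the lowest value.

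Ratios between partner genes within the same mouse do not depend on the scaling of a library. Of these, 5 ratios, each per kb, were compared in the 4 comparisons with an exact 2-sided permutation test over mice and adjusted over the 20 tests. The smallest p that the design allows is 0.0179 for 3 against 5 mice, 0.00794 for 5 against 5 and 0.1 for 3 against 3. None of the 20 passed after adjustment, the lowest adjusted p by the exact permutation test being 0.0595.

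The ratio of Neb to Ttn was 2.95, 2.92 and 3.54 in FVB vehicle mice and 4.59, 4.67, 4.53, 4.41 and 4.56 in HSALR vehicle mice. It was tightly held among the HSALR mice, S458 included, whose levels of both genes were low. The mean log2 ratio was higher in HSALR by 0.54, a ratio of 1.46, without overlap (exact permutation p = 0.0179, adjusted 0.0595). Ttn is far longer than Neb, and the part of the displacement by length in this ratio was not tested. With the offset for length, the log2 fold changes after vehicle were -0.25 for Ttn and 0.03 for Neb, beside -0.78 and -0.22 without it. After AICAR it was 3.44, 4.14 and 3.02 in FVB and 4.54, 5.45, 4.55, 4.26 and 4.10 in HSALR mice, which overlapped (difference 0.38; exact permutation p = 0.0357, adjusted 0.102).

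The ratio of Mybpc1 to Mybpc2, the slow to the fast form, was 0.852, 0.572, 0.598, 0.678 and 0.594 in HSALR vehicle mice and 0.384, 0.419, 0.492, 0.464 and 0.382 in HSALR AICAR mice. The groups did not overlap, and the log2 difference was -0.61 (exact permutation p = 0.00794, the smallest possible, adjusted 0.0595). S451, the 1 HSALR vehicle mouse with little epidermal RNA, had the highest ratio of its group, and the difference was -1.0 in the low-epidermal libraries, with no test past the threshold possible for 1 mouse against 5 (smallest exact permutation p 0.167). In FVB mice it was 0.487, 0.338 and 0.598 after vehicle and 0.299, 0.309 and 0.155 after AICAR, a log2 difference of -0.93 without overlap (exact permutation p = 0.1, the smallest possible). After AICAR the ratio was higher in HSALR than in FVB mice by 0.81 on the log2 scale (exact permutation p = 0.0179, adjusted 0.0595). Leaving out single mice put this difference between 0.49 and 0.99.

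Among the myomesins, the ratio of Myom3 to Myom2 was 0.0810, 0.0663, 0.0667, 0.0607 and 0.0661 in HSALR vehicle mice and 0.0271, 0.0292, 0.0428, 0.0366 and 0.0300 in HSALR AICAR mice. The log2 difference of -1.05 had no overlap (exact permutation p = 0.00794, adjusted 0.0595), although the levels of Myom3 by themselves did overlap. S451 was again the highest HSALR vehicle mouse, and the low-epidermal libraries alone gave -1.31. In FVB mice the same ratio was 0.0770, 0.0528 and 0.152 after vehicle and 0.0429, 0.0461 and 0.0181 after AICAR (log2 difference -1.37; exact permutation p = 0.1). The ratio of Myom1 to Myom2 was lower in HSALR than in FVB mice after vehicle, by -0.39 on the log2 scale, and after AICAR, by -0.19, without overlap in either case (exact permutation p = 0.0179 for both, adjusted 0.0595). The ratio of Actn3 to Actn2 differed by between -0.54 and 0.31 on the log2 scale over the 4 comparisons, with overlap in each, and the lowest exact permutation p was 0.0714. In the low-epidermal libraries alone, with 1 HSALR vehicle mouse, it differed by -0.98 after vehicle and 0.52 with AICAR in HSALR mice. It differed there by 0.29 with AICAR in FVB mice and by -0.745 between the genotypes after AICAR, and only the former overlapped.

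**Figure D4:**
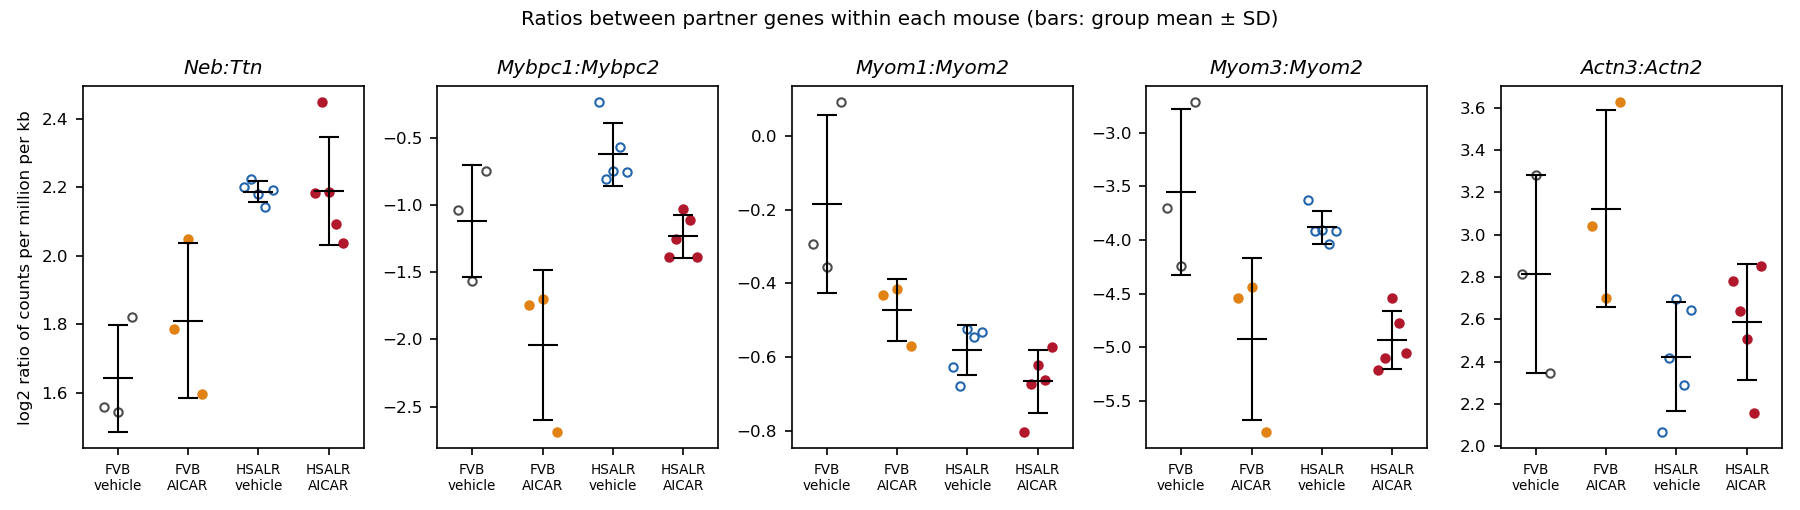
Log2 ratios of nCPM per kb between partner genes (vertical axes) in each mouse, by group. Points are mice, and bars are the group mean ± SD (n = 3 for FVB, n = 5 for HSALR groups). The Neb to Ttn ratio of the HSALR vehicle mice lay above that of each FVB vehicle mouse, and the Mybpc1 to Mybpc2 and Myom3 to Myom2 ratios of the HSALR AICAR mice lay below those of the HSALR vehicle mice.

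Mice of 1 group differed from each other in several of these genes at once. FVB AICAR mouse S449 was the highest of its group for 7 of the 9 genes and the lowest for Mybpc1 and Myom3. FVB vehicle mouse S450 was the lowest of its group for 6 of the 9 and the highest for Mybpc1, Myom1 and Myom3. In HSALR vehicle mice, S459 was the highest for 5 genes and S458 the lowest for 5. The coefficient of variation within a group was largest for Ttn in FVB AICAR mice (42.9%) and for Myom3 in FVB vehicle mice (39.2%), and smallest for Myom1 in FVB vehicle mice (3.77%) and Mybpc1 in HSALR vehicle mice (4.03%).

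Genes with a similar course over the 16 libraries were sought by Pearson's r on log2 nCPM among genes with a mean count of 50 or more. The points share group differences and library composition, so these values are descriptions. Closest to Ttn were Ryr1, the gene of the muscle calcium release channel (r = 0.939), Huwe1 (0.936) and Herc1 (0.933), and closest to Neb were Dmd, the dystrophin gene (0.91), Ubr4 (0.908) and Helz (0.896). Of these, Ryr1 (15.4 kb), Herc1 (15.2 kb) and Ubr4 (15.9 kb) are themselves long genes, and the part of length in the likeness was not tested. Closest to Mybpc1 were Nudt14 (0.94), Fhl1 (0.923) and Mb, the myoglobin gene (0.913), and closest to Mybpc2 were Saraf (0.959), Ccnk (0.949) and Gps2 (0.947). For Myom1 they were Vps39 (0.91), Ank (0.909) and Atrip (0.902), for Myom2 Abcb6 (0.959), Dop1b (0.952) and Tbc1d1 (0.952), and for Myom3 Smtnl1 (0.883), Sbk3 (0.882) and Npnt (0.876). Ldb3 had the lowest likeness to any gene, with Tacc2 (0.802), Ggt5 (0.798) and Pgm1 (0.795), and Actn3 had Dnajb12 (0.884), Mybpc2 (0.88) and Cops7a (0.868). Mybpc2 was thus the only one of the 9 among the 3 nearest genes of another.

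Of 54 other sarcomere genes on lists of the Z-disc, M-band, titin partners, nebulin family, myosin-binding proteins and folding factors, 52 were tested. Between HSALR and FVB after vehicle 18 were higher and 5 lower, and with AICAR in HSALR mice 3 were higher and 16 lower. Of all genes tested, 15.4% were higher and 11.5% lower in the first comparison, and 13.7% and 13.0% in the second, which is also the background of the counts by list below. In the 10 libraries with little epidermal RNA the counts were 12 and 2 after vehicle, where 4.14% and 1.66% of all genes passed, and 1 and 7 with AICAR in HSALR mice, where 2.78% and 2.99% did. After AICAR 10 were higher and 5 lower in HSALR than in FVB mice, where 12.2% and 9.64% of all genes were, and with AICAR in FVB mice 1 was higher and 3 lower, where 8.4% and 4.77% were. These comparisons share groups of mice, so their counts are not independent of each other.

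Among 20 Z-disc genes, 7 were higher and 1 lower in HSALR after vehicle (median log2 fold change 0.16, beside 0.01 for all genes), whereas Ldb3 and Actn3 did not pass. Xirp1, which encodes an actin-binding repair protein, was 140, 236 and 209 nCPM in FVB vehicle and 1032, 996, 801, 585 and 600 nCPM in HSALR vehicle mice (log2 fold change 2.04 ± 0.31; edgeR adjusted p = 0.000194). With AICAR in HSALR mice it stood at 302, 279, 385, 276 and 221 nCPM, and fell by 1.46 on the log2 scale (SE 0.25; edgeR adjusted p = 0.000639). Flnc, the filamin C gene, had log2 fold changes of 1.39 ± 0.19 and -0.79 ± 0.16 in these comparisons, Csrp3, the muscle LIM protein gene, 1.38 ± 0.33 and -1.04 ± 0.27, and Pdlim7 -1.41 ± 0.13 and 0.84 ± 0.11, each past the threshold by edgeR. In the low-epidermal libraries alone the AICAR change of Xirp1 was -1.82 (edgeR adjusted p = 0.0281), and those of Flnc (-0.98, 0.0625), Csrp3 (-1.35, 0.0875) and Pdlim7 (0.66, 0.0805) missed the threshold, whereas after vehicle all 4 genes passed there. With AICAR in HSALR mice 2 of the 20 were higher and 8 lower.

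Among 10 M-band and titin kinase partner genes, 3 were higher and 1 lower in HSALR after vehicle and 1 was lower with AICAR in HSALR mice. The call with AICAR, and 1 of the 3 higher after vehicle, were each lost on leaving out any 1 of 8 mice. Obsl1, which encodes a cytoskeletal linker protein, had a log2 fold change of 0.49 ± 0.12 and the autophagy receptor gene Nbr1 had 0.35 ± 0.07, and in the low-epidermal libraries alone neither passed (0.39, edgeR adjusted p = 0.254, and 0.30, edgeR adjusted p = 0.176). Of 7 titin I-band partners, 3 were higher and 2 lower after vehicle. Among the lower was Ankrd23, with means of 3377 nCPM in FVB vehicle and 2453 nCPM in HSALR vehicle mice. Ankrd1, a stretch-responsive ankyrin repeat gene, went up by 2.86 ± 0.61 on the log2 scale from a mean of 13.3 to 96.8 nCPM, and with AICAR in HSALR mice it fell by 2.04 (SE 0.48). The low-epidermal libraries alone gave 4.24 and -2.74 for Ankrd1 (edgeR adjusted p = 0.0125 and 0.0281). Fhl1, a LIM domain gene, was 2901, 2088 and 3717 nCPM in FVB vehicle and 5395, 5952, 5399, 5720 and 6426 nCPM in HSALR vehicle mice (0.99 ± 0.18; edgeR adjusted p = 0.000989).

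Of 11 genes of the nebulin family and thin filament caps, 3 were higher and 1 lower after vehicle, and 0 were higher and 3 lower with AICAR in HSALR mice, whereas Neb itself did not pass. The lower gene after vehicle was Kbtbd13, with means of 21.4 nCPM in FVB vehicle and 13.1 nCPM in HSALR vehicle mice. Klhl40, whose product stabilises nebulin and leiomodin 3, was 164, 193 and 206 nCPM in FVB vehicle, 431, 466, 391, 368 and 366 nCPM in HSALR vehicle and 239, 260, 234, 203 and 199 nCPM in HSALR AICAR mice. Its log2 fold changes were 1.11 ± 0.13 (edgeR adjusted p = 2.16e-05) and -0.83 ± 0.11 (edgeR adjusted p = 8.38e-05). Klhl41, its relative, had 0.95 ± 0.08 and -0.28 ± 0.07, and Lmod3, the leiomodin 3 gene, had -0.41 ± 0.12 with AICAR. In the low-epidermal libraries alone the AICAR call of Klhl40 was kept (-0.93, edgeR adjusted p = 0.0196), and those of Klhl41 (-0.28, 0.12) and Lmod3 (-0.34, 0.135) were not. Of 3 sarcomere folding factors, 1 was called higher after vehicle and 1 lower with AICAR in HSALR mice, and each call was lost without 1 or another single mouse. The lower gene, Hsp90aa1, had -0.63 with AICAR, and -1.25 in the low-epidermal libraries, where S451 is the only HSALR vehicle mouse. After vehicle Hsp90aa1 had 0.38, which did not pass, and 1.07 in those libraries.

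In the family of Mybpc1 and Mybpc2, Mybph, which encodes the shorter myosin-binding protein H, was called between HSALR and FVB mice after vehicle, where neither of them was. It was 159, 187 and 99.4 nCPM in FVB vehicle and 753, 902, 804, 845 and 766 nCPM in HSALR vehicle mice, a log2 fold change of 2.46 ± 0.21 (edgeR adjusted p = 1.41e-06). With AICAR it was 186, 181 and 323 nCPM in FVB and 562, 540, 577, 457 and 499 nCPM in HSALR mice, and in HSALR mice it fell by 0.63 on the log2 scale (SE 0.17; edgeR adjusted p = 0.0119). In the low-epidermal libraries alone the AICAR change of Mybph was -0.52 (edgeR adjusted p = 0.212). The interaction passed for Mybph (-1.26 ± 0.27, edgeR adjusted p = 0.0462), Xirp1 (-1.84 ± 0.40, edgeR adjusted p = 0.0496) and Klhl40 (-0.88 ± 0.18, edgeR adjusted p = 0.0339), 3 of the 52 genes, where 0.691% of all genes tested did. These interaction calls were fragile, since leaving out any of 14 of the 16 mice ended that of Mybph, any of 12 that of Xirp1 and any of 11 that of Klhl40. Without FVB AICAR mouse S449 the values were -0.93, -1.35 and -0.70 (edgeR adjusted p = 0.074, 0.0845 and 0.0624), and there 0 of the 52 passed. In the 10 libraries with little epidermal RNA, which keep 1 HSALR vehicle mouse, the values were -1.07, -2.4 and -1.11. Mybpc3 and Mybphl did not pass the filter on low counts.

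**Figure D5:**
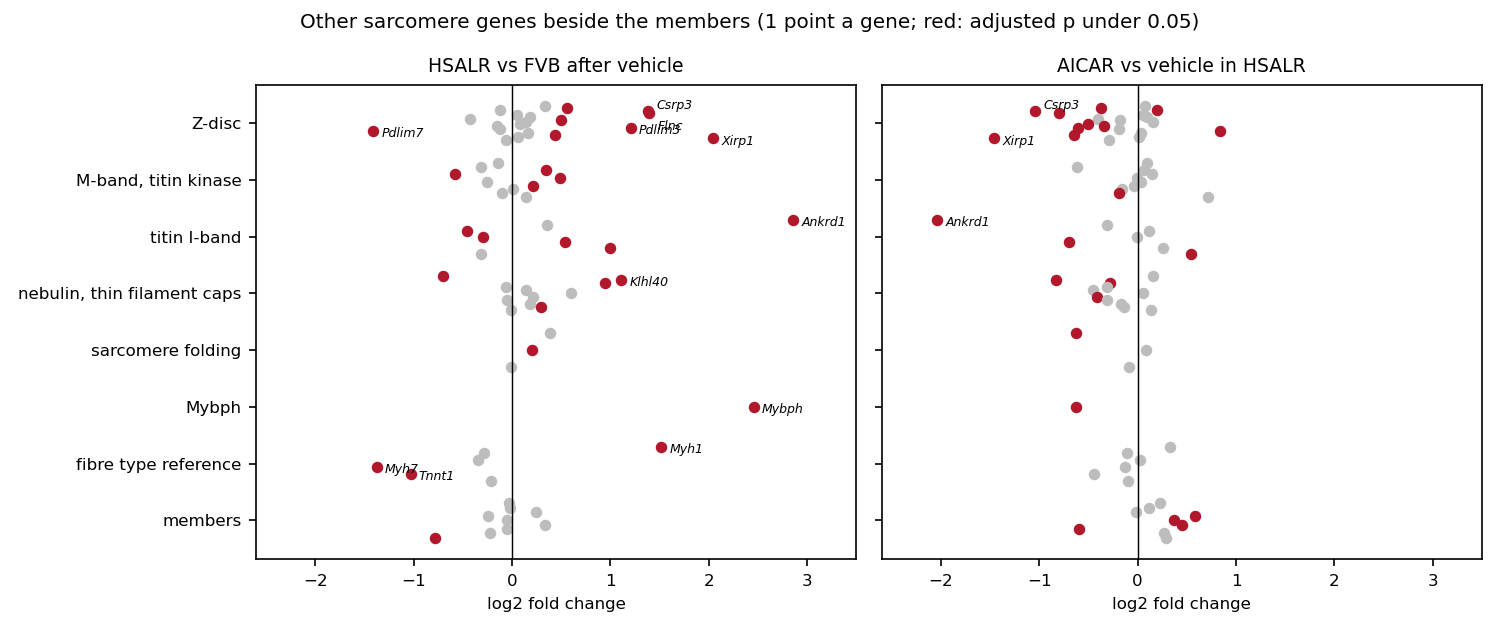
Log2 fold changes (horizontal axes) of the other sarcomere genes by list, with the fibre type reference genes and the 9 genes at the bottom, between HSALR and FVB after vehicle (left) and for AICAR in HSALR mice (right). Each point is 1 gene, red marks an edgeR adjusted p under 0.05, and genes with a change over 1 are named. Ankrd1, Mybph and Xirp1 lay farthest right on the left side, at 2.86, 2.46 and 2.04.

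Fibre type genes were read beside the members, since Actn3, Mybpc2 and Myom2 belong to fast fibres and Myom3 and Mybpc1 to slow or mixed ones. Of 6 reference genes, 1 was higher and 2 lower in HSALR after vehicle. Myh1, the myosin of fast IIX fibres, was 5408, 4230 and 3513 nCPM in FVB vehicle and 17610, 10030, 12340, 9473 and 13370 nCPM in HSALR vehicle mice (log2 fold change 1.52 ± 0.19; edgeR adjusted p = 4.08e-05). The slow fibre genes Myh7 and Tnnt1 were called lower, and both calls rested on FVB vehicle mouse S450. Myh7 was 1506, 1647 and 4812 nCPM in FVB vehicle and 888 to 1243 nCPM in HSALR vehicle mice (-1.37 ± 0.36; edgeR adjusted p = 0.0113), and without S450 the log2 fold change was -0.62 (edgeR adjusted p = 0.172). Tnnt1 was 420, 445.5 and 1143 nCPM in FVB vehicle and 256 to 420 nCPM in HSALR vehicle mice (-1.03 ± 0.35; edgeR adjusted p = 0.0407), and without S450 it was -0.40 (edgeR adjusted p = 0.416). The Tnnt1 call was also lost without HSALR vehicle mice S451 (-0.97, edgeR adjusted p = 0.0743), S453 (-0.97, edgeR adjusted p = 0.0787) or S459 (-1.0, edgeR adjusted p = 0.0732). S450 was likewise the highest FVB vehicle mouse for Mybpc1 and Myom3. After AICAR 2 of the 6 passed between the genotypes. Myh1 was higher in HSALR mice, by 1.5 ± 0.19 on the log2 scale (edgeR adjusted p = 7.82e-05), and Myh4, the myosin of fast IIB fibres, was lower (-0.67 ± 0.18; edgeR adjusted p = 0.0177). Without FVB AICAR mouse S449 the Myh4 difference was -0.40 (edgeR adjusted p = 0.134). With AICAR 0 of the 6 passed by edgeR in either genotype, and at an unadjusted p under 0.05 there were 0 in HSALR and 1 in FVB mice (Tnnt3, log2 fold change -0.22, edgeR adjusted p = 0.101). For AICAR in HSALR mice, Myh4 had 0.03, Myh1 0.33, Myh7 -0.12 and Tnnt1 -0.45. In the low-epidermal libraries alone, where 1 HSALR vehicle mouse was left, these were 0.55, -0.16, 0.08 and -0.09. The part of fibre type in the members' changes was not tested.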

How the data were processed

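Gastrocnemius RNA of 16 mice was sequenced by the authors as stranded, polyA-selected, single-end libraries. Per the study's methods and processing notes, reads were mapped to mm10 with STAR 2.5.2a, and the deposited table holds raw counts of reads that start in annotated RefSeq exons of each gene, with the exonic length; the strand setting is not given in the sources used here. Mice were grouped by genotype and treatment from the sample labels. Of 24454 Entrez identifiers, 24374 matched a gene symbol.

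Counts were fitted over all 4 groups with edgeR 4.0.16 in R 4.3.3 (filterByExpr, TMM scaling, quasi-likelihood test, Benjamini-Hochberg adjustment over all 15487 genes tested). Each library held 64890014 counts or more, and the errors given are the spread between mice or the standard errors of the fit. The model was tested on simulated counts. Ratios per kb were compared by exact permutation over mice. The 9 genes were all named, the 3 genes with the highest Pearson's r were given for each, and up to 4 called genes by size of change for each list, with Actn2 beside Actn3; Dst, Neat1, Macf1 and Tnnt3 were named after their values were seen. The 9 genes and the gene lists were chosen with earlier results of these data known. Alternatives were other scalings, filters, an offset for length, the epidermal marker score (log2 with a pseudocount of 0.01), leaving out each mouse, limma 3.58.1 with voom, DESeq2 1.42.0, and the libraries with an epidermal marker sum under 10, which was chosen after seeing the data. The values of 1 gene on these lists are not reported here.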

Additional observations from a re-analysis of the deposited data

Results flagged for a closer look

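In the groups of 5 mice, 30 sets of values were screened for a single mouse far from the others, and 3 stood apart by Dixon's criterion, which chance meets in about 5% of groups. HSALR vehicle mouse S458 had 6048 nCPM of Ttn, below the 8370 to 9265 nCPM of the other 4 mice of its group. The same mouse had 5750 nCPM of Neb, below 8168 to 9112 nCPM in the others. HSALR AICAR mouse S462 had 2017 nCPM of Actn2, above 1451 to 1560 nCPM in the others.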

How the results depend on the processing

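Values are log2 differences unless they are counts of genes, and the causes of the changes below were not tested. Scaled to Tbp, a single low-count gene, the median of all genes shifted to 0.279 (HSALR against FVB after vehicle), -0.132 (AICAR in HSALR), 0.192 (AICAR in FVB) and -0.321 (interaction). Of the 9 genes 2 then passed after vehicle, 2 with AICAR in HSALR, 1 with AICAR in FVB and 1 between genotypes after AICAR, where 1396 of all genes passed, and 381 passed the interaction. Signs turned after vehicle for Neb (0.0616), Mybpc2 (0.0172), Myom1 (0.223), Myom3 (0.260), Ldb3 (0.248) and Actn3 (0.240), with AICAR in FVB for Neb (0.104) and Ldb3 (0.165), and in the interaction for Mybpc2 (-0.280), Myom1 (-0.0431), Myom2 (-0.231) and Ldb3 (-0.162). Of the genes called after vehicle 57.2% were higher, and 95.4% with Tbp; with AICAR in HSALR 51.3%, 25.2% with Tbp and 30.9% with library size only; with AICAR in FVB 63.8%, 94.3% with Tbp, 50.7% with library size only and 45.1% with upper-quartile scaling; in the interaction 29.9%, 1.57% with Tbp and 40.7% with upper-quartile scaling. With library size only, 2 of the 9 passed after vehicle, Ldb3 was 4.25e-05 there, Mybpc2 -0.000209 in the interaction, and the median of genes of 8 kb and over -0.0954 for AICAR in HSALR.

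With the length offset, that median was -0.0448 after vehicle and -0.0274 between genotypes after AICAR, where 4 of the 9 passed and Ttn was 0.0662. After vehicle Neb (0.0311), Myom1 (0.0233), Myom3 (0.0239) and Ldb3 (0.0664) turned positive. With the epidermal score, 1888 genes and 1 of the 9 passed with AICAR in HSALR, where Ttn was -0.0810 and Mybpc1 0.0660, 1 of the 9 passed between genotypes after AICAR and 51 genes the interaction, Ldb3 was 0.0336 after vehicle, and the interaction was -0.0290 for Mybpc2 and -0.0657 for Myom2. The libraries with an epidermal sum under 10, a choice made after seeing the data, leave 1 HSALR vehicle mouse, assumed to vary like the others. There 904 genes passed after vehicle (71.3% higher), 899 with AICAR in HSALR, 697 with AICAR in FVB and 0 the interaction, with 0, 1, 0 and 0 of the 9 and 1 between genotypes after AICAR. Myom3 was 0.575 after vehicle, Neb -0.0131 between genotypes after AICAR, and the interaction -0.0269 for Myom3 and 0.297 for Actn3; the ratio of Myom3 to Myom2 was 0.345 after vehicle and 0.229 between genotypes after AICAR, and that of Neb to Ttn -0.0105 with AICAR in HSALR. With only the 2 groups compared, 1164 genes and 0 of the 9 passed with AICAR in FVB and 1 of the 9 between genotypes after AICAR. DESeq2 called 2 of the 9 after vehicle, 4 with AICAR in FVB, and 536 genes in the interaction, and limma put Myom3 at 0.0098 after vehicle.

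Leaving out each mouse in turn gave 0 to 2 of the 9 after vehicle, with Myom3 from -0.262 to 0.308, Ldb3 from -0.0921 to 0.0551 and Actn3 from -0.109 to 0.0649. With AICAR in HSALR Mybpc1 ranged from -0.0520 to 0.0344. With AICAR in FVB there were 1143 genes (without S449) to 2186 and 0 to 3 of the 9, with Ttn from -0.609 to 0.0101, Neb from -0.335 to 0.0516, Myom1 from -0.00725 to 0.172 and Ldb3 from -0.0997 to 0.0478. Between genotypes after AICAR there were 2214 (without S447) to 3790 genes and 1 to 3 of the 9, with Ttn from -0.513 to 0.115, Neb from -0.0140 to 0.382 and Actn3 from -0.153 to 0.0841. The interaction gave 15 (without S448) to 371 (without S460) genes, with Mybpc2 from -0.108 to 0.233, Myom2 from -0.0387 to 0.235 and Actn3 from -0.133 to 0.111. The ratio of Myom3 to Myom2 ranged from -0.673 to 0.0887 after vehicle and from -0.446 to 0.229 between genotypes after AICAR, and Neb to Ttn from -0.0623 to 0.0404 with AICAR in HSALR. No alternative with fewer reads was run. No paired analysis was possible because each mouse carries its own number and none is shared between groups.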

Other observations

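Markers of other cells in the muscle were read beside the members. The endothelial markers Cdh5 and Pecam1 summed to 155 to 166 nCPM in FVB vehicle, 165 to 173 in FVB AICAR, 102 to 129 in HSALR vehicle and 123 to 141 in HSALR AICAR mice, and both passed as lower in HSALR than in FVB mice by edgeR after vehicle and after AICAR. Pecam1 passed as higher with AICAR in HSALR mice. Pax7, the satellite cell marker, was 0.842 to 1.08 nCPM in FVB vehicle and 1.74 to 2.31 nCPM in HSALR vehicle mice, and 0.314 to 0.668 and 0.946 to 1.65 nCPM after AICAR. It was called higher in HSALR mice under both treatments and lower with AICAR in both genotypes. The fibroblast markers Pdgfra and Col1a1 summed to 185 to 411 nCPM in FVB vehicle, 214 to 248 in FVB AICAR, 211 to 335 in HSALR vehicle and 144 to 203 in HSALR AICAR mice. Of the 2, Col1a1 was called lower with AICAR in HSALR mice (from 207.5 to 109.5 nCPM in the mean, log2 fold change -0.92 ± 0.23, edgeR adjusted p = 0.00848). That comparison runs along with the difference in epidermal RNA, for Col1a1 as for Pecam1 and Pax7. Values of these genes in the low-epidermal libraries alone are not given here, and the part of skin RNA in their calls was not tested. Of the 2 macrophage markers Adgre1 and Cd68, Cd68 was called higher in HSALR than in FVB mice after vehicle (9.58 against 5.63 nCPM in the mean; log2 fold change 0.77 ± 0.20; edgeR adjusted p = 0.00942). Their part in the members' levels was not tested.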
